A study of Mus musculus with 20 samples.

Results

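The Hox genes of the mouse were followed through 20 RNA-seq libraries of colon, from a study of Pcca, which encodes a subunit of propionyl-CoA carboxylase, an enzyme of propionate breakdown. Members were the protein-coding rows of the deposited count tables whose gene name is Hox, a cluster letter (a, b, c or d) and a number. There were 39 such genes among the 56748 rows that cover the chow animals and 37 among the 31184 rows that cover the high fat diet (HFD) animals, where Hoxb1 and Hoxc12 were not among the rows. The 39 genes fall into 11 of cluster a, 10 of cluster b, 9 of cluster c and 9 of cluster d.

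On chow the groups were Vill, animals whose Pcca was knocked out by a Villin-Cre transgene, Alb, animals whose Pcca was knocked out in the liver by Albumin-Cre, and ff, the floxed controls, which the design text calls littermates of the Vill animals, all killed at 9 weeks. On HFD, with 60% of its energy from fat, the groups were Vill and ff, male mice fed this diet for 12 weeks and killed at 18 weeks. All were fasted for 4 hours, and each of the 5 groups has 4 libraries, numbered as replicates. The labels do not say that each replicate is a separate animal, so p-values measure the spread between these samples. The labels do not give the Cre status of ff. The Villin promoter is active in gut epithelium, so Villin-Cre leaves the muscle and connective tissue of the colon untargeted, and the Albumin promoter is active in hepatocytes. Sections of colon were flushed, frozen and homogenised whole. The labels do not say which part of the colon was taken or the sex of the chow mice. Diet and age differ together between the chow and HFD animals, so levels under the diets are set side by side and the same genotype was not tested across diets.

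Hox genes encode homeodomain transcription factors that give cells of the trunk, limbs and gut their place along the head-to-tail axis. Within a cluster the genes lie in the order of the body regions that use them, from paralogue 1 at the anterior end to paralogue 13 at the posterior end, and genes with the same number in different clusters descend from a common ancestor. In the gut, paralogue 13 genes are the most posterior and are known for their roles in the hindgut, where Hoxa13 and Hoxd13 shape the distal colon and anorectal region. The pattern set in the embryo is partly kept in the adult intestine, in epithelium and in the muscle and connective tissue around it.

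Counted reads per library ran from 27857056 to 40385785 on chow and from 16881567 to 24423757 on HFD. Levels below are counts scaled to library size (CPM) on the TMM scale (a scaling set by the genes that most libraries share). Pcca ran from 28.2 to 33.9 CPM in chow Vill, 39.3 to 60.2 CPM in chow Alb and 40.6 to 57.2 CPM in chow ff. On HFD it lay at 32.2 to 35.9 CPM in Vill, against 28.9 to 57.9 CPM in ff, where the groups overlapped. Chow Vill and ff did not overlap (log2 -0.67, SE 0.16). The edgeR quasi-likelihood test gave Pcca an unadjusted p of 0.00107 there, but an adjusted p of 0.9999 over all genes tested. Epithelial markers were high in every library, with a summed level of 9827 to 18895 CPM over 9 genes. HFD ff 1 and 3 stood apart, with 434 and 505 CPM of Slc10a2, the bile acid transporter of the ileum, against 1.58 to 4.95 CPM in the other 6 HFD libraries. Chow Alb 2 stood apart in squamous keratins, with 40.1 CPM of Krt5 where the other 19 libraries had at most 0.452 CPM. Several fold changes that rest on HFD ff 1 and 3 are given below with and without them. The levels and the spread within groups are given with them only. The colon was measured in bulk, so fewer cells of a type and less RNA per cell cannot be told apart.

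Of the 39 Hox genes, 38 had a read in some library, and only Hoxc12 had none. A mean of 1 CPM or more in some group was reached by 28, and a mean of 10 CPM or more by 15. Cluster a supplied 10 of the 28, cluster b 9, cluster d 8 and cluster c 1. The expression filter kept 29 on chow, leaving out Hoxb1, Hoxd1 and all of cluster c but Hoxc4, and 26 on HFD, where Hoxd3, Hoxd4 and Hoxd12 were left out too. Divided by gene length, the highest mean level over the 20 libraries was that of Hoxb13, at 76.2 CPM per kb, then Hoxb9 at 25.0, Hoxa13 at 22.1, Hoxb6 at 16.0 and Hoxa10 at 16.0 CPM per kb. Hoxd13 led cluster d at 11.3 CPM per kb. The heat map of the members shows clusters a and b filled, cluster c nearly empty, and strong differences between single libraries of the same group.

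**Figure D1:**
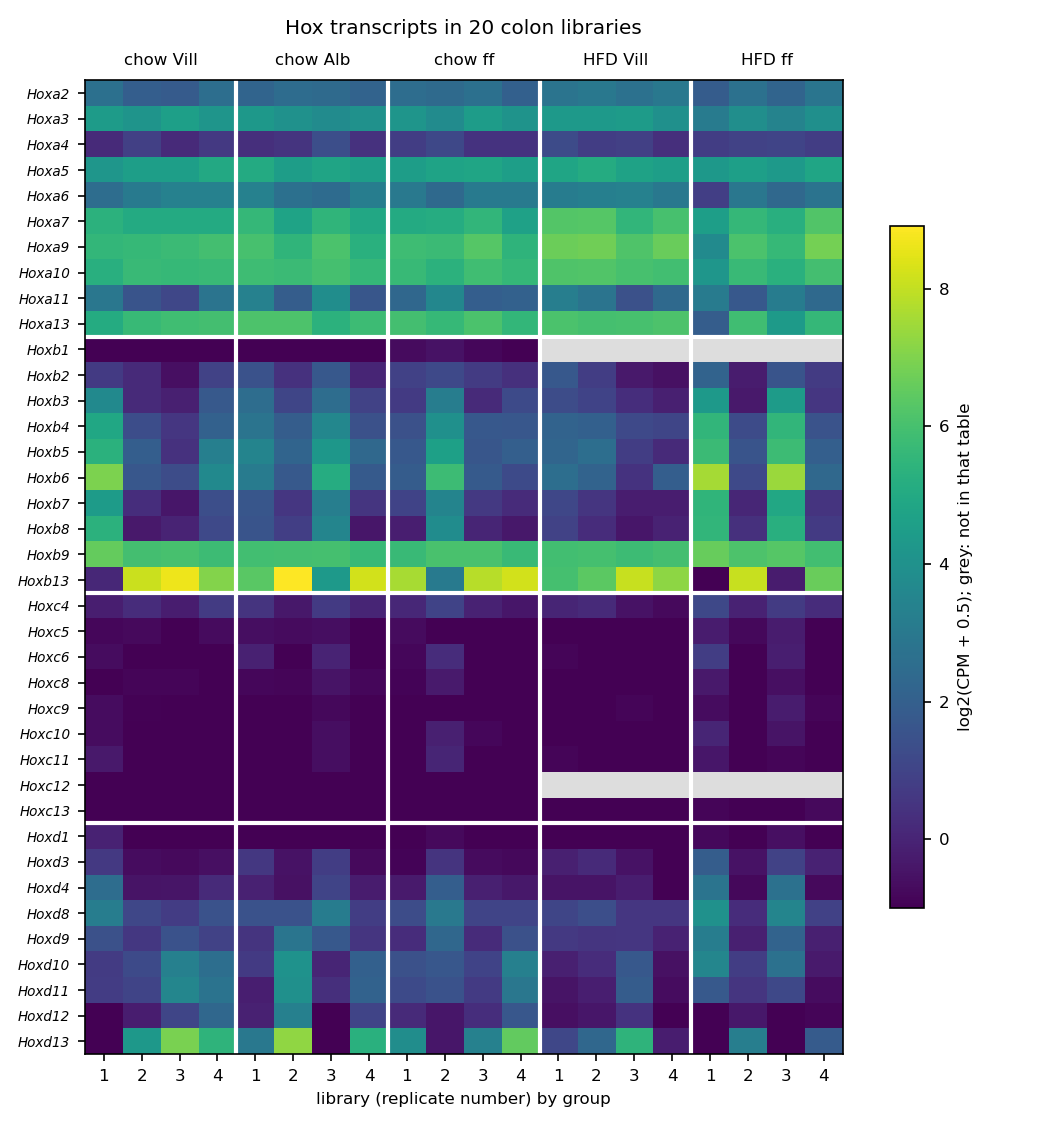
Levels of 38 of the 39 Hox genes as log2(CPM + 0.5), a row per gene in order of cluster and paralogue number and a column per library; grey cells are genes outside the HFD table. In chow Vill 1, chow Alb 3, chow ff 2, HFD ff 1 and HFD ff 3, Hoxb13 is darker and Hoxb6 to Hoxb8 are brighter than in the other libraries of the same group.

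Paralogue 13 holds the genes at the posterior end. By the deposited tables, on mm39, Hoxb13 (ENSMUSG00000049604) lies at chr11:96085142-96088273 and Hoxd13 (ENSMUSG00000001819) at chr2:74498654-74501943, both on the plus strand, with no overlapping row. Hoxb13 had 0.588, 276, 400.3 and 135 CPM in chow Vill libraries 1 to 4, 83.1, 479.9, 19.5 and 299 CPM in chow Alb libraries 1 to 4, and 195, 7.71, 227 and 299 CPM in chow ff libraries 1 to 4. In HFD Vill, Hoxb13 stood at 63.7, 85.7, 271 and 149 CPM, against 0, 269, 0.339 and 100.4 CPM in HFD ff. Each chow group thus held 1 library under 20 CPM (Vill 1, Alb 3 and ff 2) beside libraries near or above 100 CPM, and the 3 groups overlapped throughout. On HFD the Vill libraries lay between 63.7 and 271 CPM, and ff held 2 libraries with 269 and 100.4 CPM and 2 with almost no reads. Hoxd13 had 0, 19.1, 119.8 and 43.3 CPM in chow Vill libraries 1 to 4, 7.42, 153, 0 and 39.03 CPM in chow Alb libraries 1 to 4, and 14.1, 0.258, 9.60 and 92.7 CPM in chow ff libraries 1 to 4. In HFD Vill, Hoxd13 stood at 1.64, 4.52, 43.5 and 0.362 CPM, against 0, 8.98, 0 and 3.09 CPM in HFD ff. Hoxd13 had at most 0.258 CPM in the 5 libraries with Hoxb13 under 20 CPM, and 0.362 CPM in HFD Vill 4, where Hoxb13 had 149 CPM. It had no read in 4 libraries (chow Vill 1, chow Alb 3, HFD ff 1 and HFD ff 3), and was highest in chow Alb 2 and chow Vill 3. Where it had no read, 3 reads would be 0.0980, 0.112, 0.127 and 0.170 CPM.

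Hoxa13 (ENSMUSG00000038203, chr6:52234674-52237788, minus strand) was more even. Hoxa13 had 33.4, 51.1, 57.8 and 61.0 CPM in chow Vill libraries 1 to 4, 70.9, 70.3, 40.9 and 54.9 CPM in chow Alb libraries 1 to 4, and 61.0, 49.8, 67.6 and 46.9 CPM in chow ff libraries 1 to 4. In HFD Vill, Hoxa13 stood at 68.3, 62.3, 63.9 and 70.7 CPM, against 3.26, 58.0, 20.6 and 48.5 CPM in HFD ff. On chow all 12 libraries lay between 33.4 and 70.9 CPM. HFD ff 1 was far below every other library, and HFD ff 3 was next. Hoxc13, the fourth gene of this number, had no read in any chow library, 1 read in HFD ff 1 and 2 reads in HFD ff 4.

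**Figure D2:**
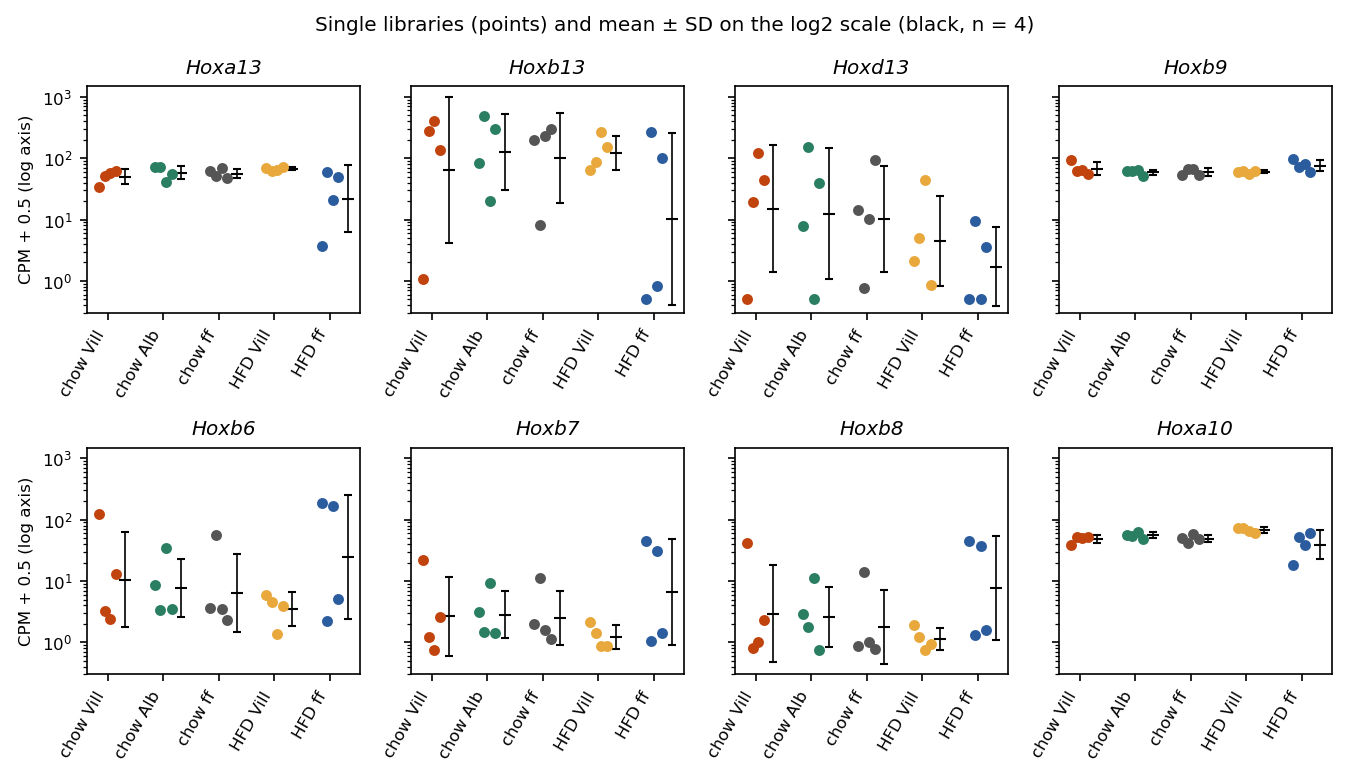
CPM + 0.5 on a log axis for 8 Hox genes in the 5 groups; points are libraries in replicate order and black bars are the mean and SD of log2(CPM + 0.5), n = 4. Hoxb13 and Hoxd13 span orders of magnitude inside a group, Hoxb6, Hoxb7 and Hoxb8 are high in single libraries, and Hoxb9 and Hoxa10 stay within a narrow range on chow.

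Promoters of Hoxd13, a posterior gene, and of Hoxb8, Hoxb4 and Hoxd4, which were high where Hoxb13 was low, are shown so that both ends of the contrast can be compared, and were picked after the levels were seen. They come from RefSeq on GRCm38.p6, a build older than that of the count tables, and hold 250 bases before and 50 bases after the start of the gene. Promoters of 22 of the 39 Hox genes were matched by symbol, 24 in all. Judged by distance from Hoxd13 in each build, the Hoxd4 window lies inside the counted Hoxd4 row, whose own start is beside that of Hoxd3. Capitals mark matches, on either strand, to CAATAAA and TCGTAAA, which posterior Hox proteins are known to bind in vitro, and to TGATTNAT, a site of Hox and Pbx pairs. The Hoxd13 window lies at chr2:74667975-74668274, Hoxd4 at chr2:74721728-74722027, Hoxb8 at chr11:96281655-96281954 and Hoxb4 at chr11:96318017-96318316, all in GRCm38.p6 coordinates on the plus strand and written 5′ to 3′.
Hoxd13: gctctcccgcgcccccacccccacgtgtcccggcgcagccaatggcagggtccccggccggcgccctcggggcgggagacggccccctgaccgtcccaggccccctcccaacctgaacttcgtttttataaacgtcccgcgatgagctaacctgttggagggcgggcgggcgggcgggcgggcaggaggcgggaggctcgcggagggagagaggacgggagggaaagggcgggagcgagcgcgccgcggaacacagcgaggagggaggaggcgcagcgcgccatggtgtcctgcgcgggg
Hoxb8: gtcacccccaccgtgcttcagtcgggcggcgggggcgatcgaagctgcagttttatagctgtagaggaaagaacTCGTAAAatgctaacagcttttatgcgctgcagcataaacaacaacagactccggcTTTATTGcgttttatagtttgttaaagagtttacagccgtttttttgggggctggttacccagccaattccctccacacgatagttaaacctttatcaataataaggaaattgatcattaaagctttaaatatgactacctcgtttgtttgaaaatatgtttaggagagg
Hoxb4: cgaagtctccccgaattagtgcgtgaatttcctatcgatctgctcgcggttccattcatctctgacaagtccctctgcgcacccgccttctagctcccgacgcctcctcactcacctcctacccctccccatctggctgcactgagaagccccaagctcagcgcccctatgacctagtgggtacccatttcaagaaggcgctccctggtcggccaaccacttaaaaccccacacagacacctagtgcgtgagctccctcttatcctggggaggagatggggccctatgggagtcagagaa
Hoxd4: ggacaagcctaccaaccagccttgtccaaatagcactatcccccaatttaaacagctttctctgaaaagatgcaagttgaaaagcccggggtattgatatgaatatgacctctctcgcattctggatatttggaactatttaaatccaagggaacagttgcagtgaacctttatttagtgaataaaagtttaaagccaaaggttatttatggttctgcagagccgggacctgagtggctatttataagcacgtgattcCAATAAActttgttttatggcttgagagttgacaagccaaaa

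The Hoxd13 promoter is 74.3% G and C with 37 CG pairs, and the Hoxb8, Hoxb4 and Hoxd4 promoters are 42.3%, 58% and 39.7% G and C with 13, 14 and 4 CG pairs. The 24 Hox promoters had a median of 57.7% G and C and 14.5 CG pairs, against 52.7% and 7 over all 32851 listed promoters. CAATAAA was in the Hoxb8 and Hoxd4 promoters, which is 8.33% of the Hox promoters, against 4.6% of all promoters. TCGTAAA was in the Hoxb8 promoter and a Hoxd11 promoter, 8.33% against 0.597% of all. TGATTNAT was in a second Hoxd11 promoter and in that of Hoxa2, 8.33% against 3.2% of all. The Hoxd13 and Hoxb4 windows hold none of the 3 motifs.

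Within cluster b, the genes with numbers from 3 to 8 were high in the same few libraries. Hoxb6 had 123, 2.71, 1.94 and 12.4 CPM in chow Vill libraries 1 to 4, 8.14, 2.86, 34.3 and 3.00 CPM in chow Alb libraries 1 to 4, and 3.19, 55.1, 3.01 and 1.84 CPM in chow ff libraries 1 to 4. In HFD Vill, Hoxb6 stood at 5.44, 3.99, 0.877 and 3.44 CPM, against 189.9, 1.77, 169 and 4.64 CPM in HFD ff. The high libraries are chow Vill 1, chow Alb 3, chow ff 2, HFD ff 1 and HFD ff 3, the 5 libraries in which Hoxb13 was under 20 CPM. Hoxb8 had 41.2, 0.299, 0.498 and 1.78 CPM in chow Vill libraries 1 to 4, 2.44, 1.28, 10.9 and 0.255 CPM in chow Alb libraries 1 to 4, and 0.385, 13.4, 0.521 and 0.284 CPM in chow ff libraries 1 to 4. In HFD Vill, Hoxb8 stood at 1.43, 0.709, 0.258 and 0.452 CPM, against 45.0, 0.806, 37.3 and 1.09 CPM in HFD ff. Those same 5 libraries were the only ones above 3 CPM. Hoxb7 had 21.2, 0.722, 0.261 and 2.09 CPM in chow Vill libraries 1 to 4, 2.65, 0.989, 8.81 and 0.925 CPM in chow Alb libraries 1 to 4, and 1.51, 10.5, 1.07 and 0.653 CPM in chow ff libraries 1 to 4. In HFD Vill, Hoxb7 stood at 1.64, 0.930, 0.361 and 0.362 CPM, against 44.0, 0.537, 30.2 and 0.910 CPM in HFD ff. In mouse, Hoxb6, Hoxb7 and Hoxb8 pattern the trunk, and they lie next to each other at chr11:96172731-96192395 of mm39. Hoxb3, Hoxb4 and Hoxb5 were also highest in their groups in these libraries, with chow Vill 1 at 12.5, 29.3 and 39.2 CPM, and HFD ff 1 at 19.4, 46.0 and 52.9 CPM. Hoxb3 was nearly equal in chow Alb 1 and chow Alb 3, at 5.31 and 5.32 CPM.

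Hoxb9 did not share this range, and Hoxb2 was low but varied in part with the same libraries. Hoxb9 had 93.5, 61.2, 64.8 and 55.5 CPM in chow Vill libraries 1 to 4, 60.2, 60.7, 63.2 and 50.1 CPM in chow Alb libraries 1 to 4, and 52.0, 66.8, 66.7 and 51.8 CPM in chow ff libraries 1 to 4. In HFD Vill, Hoxb9 stood at 59.7, 62.3, 54.8 and 61.2 CPM, against 97.1, 70.4, 78.5 and 59.2 CPM in HFD ff. Hoxb9 ran from 50.1 to 97.1 CPM over all 20 libraries, with its highest values in HFD ff 1 and chow Vill 1. Hoxb2 had 1.11, 0.647, 0.166 and 1.43 CPM in chow Vill libraries 1 to 4, 2.30, 0.833, 2.81 and 0.511 CPM in chow Alb libraries 1 to 4, and 1.39, 1.77, 1.16 and 0.794 CPM in chow ff libraries 1 to 4. In HFD Vill, Hoxb2 stood at 2.80, 1.24, 0.309 and 0.181 CPM, against 3.93, 0.345, 2.49 and 1.14 CPM in HFD ff. Hoxb2, an anterior gene known from hindbrain patterning, remained under 4 CPM. It was highest of its group in chow Alb 3, chow ff 2 and HFD ff 1, but not in chow Vill 1. Hoxb1, the most anterior member of the cluster, had reads in 3 chow ff libraries only, at no more than 0.194 CPM. Hoxb5 and Hoxb6 overlap the antisense transcript Hoxb5os, and Hoxb2 and Hoxb3 overlap Hoxb3os, and the sources used here do not settle whether reads were counted by strand.

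Cluster a was more even. Hoxa10 had 37.9, 52.0, 49.6 and 52.2 CPM in chow Vill libraries 1 to 4, 56.3, 52.8, 62.9 and 48.0 CPM in chow Alb libraries 1 to 4, and 50.3, 40.5, 58.1 and 47.7 CPM in chow ff libraries 1 to 4. In HFD Vill, Hoxa10 stood at 72.3, 73.8, 65.2 and 59.2 CPM, against 17.8, 51.9, 38.4 and 61.1 CPM in HFD ff. Hoxa10, a posterior gene also known from the uterus, was below all 4 HFD Vill libraries in HFD ff 1, 2 and 3 and inside their range in HFD ff 4. Hoxa3 had 21.3, 17.1, 23.7 and 17.2 CPM in chow Vill libraries 1 to 4, 19.2, 15.8, 13.4 and 15.7 CPM in chow Alb libraries 1 to 4, and 17.2, 13.1, 21.8 and 16.4 CPM in chow ff libraries 1 to 4. In HFD Vill, Hoxa3 stood at 20.2, 19.3, 21.0 and 15.2 CPM, against 8.29, 14.6, 10.4 and 14.8 CPM in HFD ff. Hoxa3, known from the neck and pharynx of the embryo, was higher in each HFD Vill library than in any HFD ff library, by a narrow margin, and its chow groups overlapped. The Hoxa3 row spans Hoxa4, Hoxa5 and Hoxa6 and several antisense transcripts, so its count and theirs are uncertain. Hoxa6 had 5.26, 7.64, 9.74 and 9.76 CPM in chow Vill libraries 1 to 4, 9.83, 5.75, 4.95 and 8.78 CPM in chow Alb libraries 1 to 4, and 7.54, 4.74, 7.98 and 7.89 CPM in chow ff libraries 1 to 4. In HFD Vill, Hoxa6 stood at 8.51, 9.30, 9.59 and 7.28 CPM, against 1.31, 7.14, 4.52 and 6.37 CPM in HFD ff. The HFD Vill libraries of Hoxa6, a trunk gene described here because its HFD groups did not overlap, all lay above the HFD ff libraries. Hoxa5, Hoxa7 and Hoxa9 ran from 18.1 to 33.6, 23.2 to 78.9 and 12.8 to 113 CPM, and HFD ff 1 gave the lowest value of Hoxa7 and of Hoxa9.

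Hoxa11, chosen after its values were seen, was the member of cluster a that ran most strongly against Hoxb13 on chow. Hoxa11 had 7.12, 2.46, 1.64 and 6.58 CPM in chow Vill libraries 1 to 4, 9.83, 3.33, 14.1 and 2.68 CPM in chow Alb libraries 1 to 4, and 4.47, 11.5, 3.41 and 3.72 CPM in chow ff libraries 1 to 4. In HFD Vill, Hoxa11 stood at 8.88, 6.51, 2.27 and 4.75 CPM, against 8.20, 2.80, 8.37 and 4.78 CPM in HFD ff. Its highest levels were in chow Alb 3 and chow ff 2, where Hoxb13 was low. The antisense transcript Hoxa11os, which overlaps it, had 12.1, 35.8, 49.7 and 29.4 CPM in chow Vill 1 to 4, 48.5, 53.1, 24.3 and 39.2 CPM in chow Alb 1 to 4 and 41.7, 15.6, 46.1 and 40.1 CPM in chow ff 1 to 4. In HFD Vill, Hoxa11os stood at 83.2, 99.8, 90.1 and 78.1 CPM, against 2.96, 84.9, 19.4 and 89.8 CPM in HFD ff. It was lowest in HFD ff 1, chow Vill 1 and chow ff 2. Reads of an overlapping sense and antisense pair cannot be told apart where strand was not counted.

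Cluster d split by number. Hoxd3 had 1.05, 0.124, 0.0948 and 0.155 CPM in chow Vill libraries 1 to 4, 1.04, 0.208, 1.24 and 0.0957 CPM in chow Alb libraries 1 to 4, and 0.0296, 0.903, 0.116 and 0.0851 CPM in chow ff libraries 1 to 4. In HFD Vill, Hoxd3 stood at 0.423, 0.620, 0.206 and 0 CPM, against 3.26, 0.192, 1.41 and 0.455 CPM in HFD ff. Hoxd3 was above 1 CPM in chow Vill 1, chow Alb 1, chow Alb 3, HFD ff 1 and HFD ff 3, and Hoxd4 and Hoxd8 were high in the libraries that were high in Hoxb6, with 6.55 and 15.8 CPM in HFD ff 1. Hoxd10 was chosen after its values were seen, because it was high in chow Alb 2 and also in HFD ff 1 and 3. In the chow libraries low in Hoxb13 (Vill 1, Alb 3 and ff 2) it stayed at 1.14, 0.525 and 2.74 CPM. Hoxd10 had 1.14, 1.84, 9.50 and 5.54 CPM in chow Vill libraries 1 to 4, 1.11, 15.9, 0.525 and 3.57 CPM in chow Alb libraries 1 to 4, and 2.25, 2.74, 1.504 and 9.33 CPM in chow ff libraries 1 to 4. In HFD Vill, Hoxd10 stood at 0.423, 0.709, 2.84 and 0.181 CPM, against 11.2, 1.23, 5.94 and 0.318 CPM in HFD ff. The highest value, 15.9 CPM, was in chow Alb 2, where Hoxd13 was also highest, and the next, 11.2 CPM, in HFD ff 1, where Hoxd13 had no read. Hoxd12 and Hoxd11 were highest in chow Alb 2, at 9.37 and 15.2 CPM. Hoxd3 and Hoxd4 overlap each other in the tables, so their counts are uncertain.

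Cluster c was close to silent. Hoxc4 had 0.392, 0.697, 0.355 and 1.16 CPM in chow Vill libraries 1 to 4, 0.897, 0.286, 1.12 and 0.511 CPM in chow Alb libraries 1 to 4, and 0.562, 1.48, 0.463 and 0.255 CPM in chow ff libraries 1 to 4. In HFD Vill, Hoxc4 stood at 0.528, 0.620, 0.206 and 0.0905 CPM, against 1.73, 0.460, 1.13 and 0.682 CPM in HFD ff. Its highest member per length, Hoxc4, a gene of neck and thoracic levels, thus reached 1.73 CPM, in HFD ff 1, and ran from 0.0905 CPM upward. Hoxc6 had at most 1.23 CPM, in HFD ff 1 too, and the other 7 members had at most 0.516 CPM in any library.

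**Figure D3:**
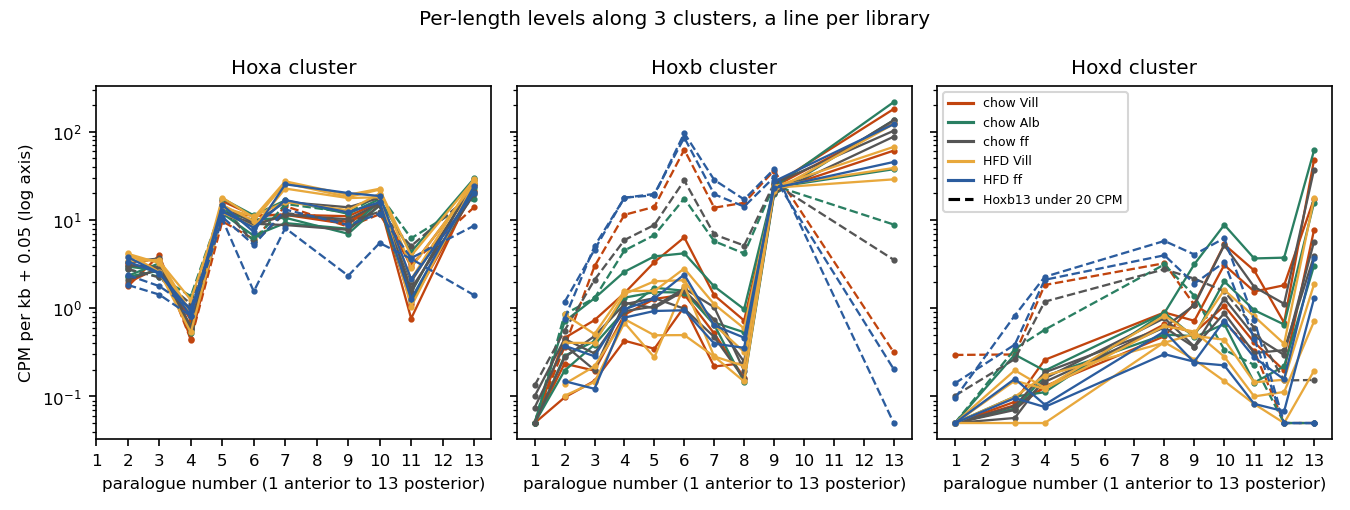
Levels per gene length (CPM per kb + 0.05, log axis) against paralogue number in clusters a, b and d, a line per library coloured by group; dashed lines are libraries with Hoxb13 under 20 CPM. In cluster b the dashed lines lie above the solid ones between numbers 3 and 8, nearly touching at Hoxb3, and meet them at Hoxb9. Their low place at Hoxb13 follows from how they were chosen, with chow Alb 3 just under the limit at 19.5 CPM. In cluster a most lines run together.

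The position of each library along the paralogue numbers was summarised as the mean paralogue number of its Hox transcripts, weighted by CPM per kb, and as the share of the summed CPM per kb that each range of numbers took. The weighted mean ran from 7.18 to 11.5 in chow Vill, 8.15 to 11.7 in chow Alb and 7.84 to 11.3 in chow ff. On HFD the Vill libraries lay between 9.17 and 10.9, against 6.67 to 10.8 for the ff libraries. The paralogue 13 share was 73.8% in chow Alb 2, the highest, and 0.490% in HFD ff 1, the lowest. Paralogues 5 to 8 took 66.8% in HFD ff 1 and 63.1% in HFD ff 3, against 7.8% in chow Alb 2. The ranges of the groups overlapped on each diet.

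By the median member, replicates of 1 group differed more in Hox transcripts than in all tested genes. The SD of log2 CPM around the group means had a median of 1.13 over the 29 tested members on chow, against 0.368 over all 19701 tested genes. On HFD it was 1.41 over 26 members, against 0.312 over all 17715 genes. On chow Hoxd13 had the largest such SD of all tested genes, 4.48, and Hoxb13 stood at rank 33 with 3.13. On HFD Hoxb13 had the largest, 4.07, and Hoxd13 stood at rank 13 with 3.13. Of the 29 chow members 13 were among the 5% of genes with the largest SD, and of the 26 HFD members 14 were. Other members were below the median of all genes, such as Hoxa10 and Hoxb9 on chow, at 0.204 and 0.237, and Hoxb9 on HFD, at 0.223. Members were not matched with genes of like level, and some with a large SD had few reads, such as Hoxd3 on chow. The HFD values include HFD ff 1 and 3, and the spread without them was not computed.

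The order of libraries by Hoxb13 was then set against the other 28 tested Hox genes and 10 genes of colon position on log2(CPM + 0.5) over the 12 chow libraries, which makes 38 relations with p-values from 100000 permutations adjusted over all 38 by Benjamini and Hochberg. The relations were chosen with the libraries already seen, and no batch is named in the labels. Among the Hox genes 9 were related inversely and 2 directly with both coefficients under an adjusted p of 0.05. For Hoxb6, r = -0.967 (adjusted permutation p = 9.50e-05) and rho = -0.902 (adjusted permutation p = 0.00095), n = 12, and r = -0.932 without the 2 libraries farthest from the median of Hoxb13. For Hoxd4, r = -0.981 (adjusted permutation p = 7.60e-05) and rho = -0.909 (adjusted permutation p = 0.00095), n = 12, and r = -0.941 without those 2. The other inverse genes were Hoxa11, Hoxb3, Hoxb4, Hoxb5, Hoxb7, Hoxb8 and Hoxd8, and over all 9 the r ran from -0.981 to -0.708, and from -0.953 to -0.773 without the 2 farthest libraries. Hoxd13 ran the same way as Hoxb13, r = 0.895 (adjusted permutation p = 0.000311) and rho = 0.897 (adjusted permutation p = 0.00095), n = 12, with r = 0.910 without the 2 farthest. Hoxd12 was the other direct relation, with r = 0.667 (adjusted permutation p = 0.0339) and rho = 0.771 (adjusted permutation p = 0.0125), n = 12. With group means removed, r ran from -0.984 to -0.802 for the 9 and was 0.671 and 0.918 for the 2.

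Along cluster d, r with Hoxb13 was -0.814 for Hoxd3, -0.914 for Hoxd8, -0.252 for Hoxd9, 0.572 for Hoxd10 and 0.505 for Hoxd11, the last 3 with an adjusted permutation p of 0.515, 0.0889 and 0.152 (n = 12). By rank, Hoxd10 had rho = 0.734 (adjusted permutation p = 0.0189) and Hoxd11 rho = 0.685 (adjusted permutation p = 0.035), which passed, and their r was 0.754 and 0.674 without the 2 farthest libraries. Hoxd3 had rho = -0.636 (adjusted permutation p = 0.053), which did not pass, while its r did (adjusted permutation p = 0.00535, n = 12). Hoxd3 to Hoxd8 thus had a strongly inverse r and Hoxd13 a strongly direct one, with Hoxd9 near 0, where rho was 0 and r was 0.0736 without the 2 farthest libraries. In cluster a, Hoxa13 had r = 0.729 (adjusted permutation p = 0.0203) but rho = 0.392 (adjusted permutation p = 0.264), and r = 0.420 without the 2 farthest libraries, so that relation rests on those libraries. Hoxb9 likewise had r = -0.759 with all 12 chow libraries and r = -0.185 without the 2. Hoxb2 had rho = -0.755 (adjusted permutation p = 0.014), which passed, and r = -0.498 (adjusted permutation p = 0.164), which did not (n = 12). Without the 2 farthest libraries the r of Hoxb2 was -0.849. Hoxa7 had rho = -0.650 (adjusted permutation p = 0.0477), which passed, and r = -0.483 (adjusted permutation p = 0.166), which did not. Without the 2 farthest libraries Hoxa10 went from r = 0.532 to -0.768. Hoxa4, Hoxa5, Hoxa7 and Hoxa9 then had r of -0.697, -0.622, -0.663 and -0.597, while Hoxa3 and Hoxa6 had 0.443 and 0.358. No r was computed over the HFD libraries, where HFD ff 1 and 3 form a separate pair. On chow, Vill 1, Alb 3 and ff 2 likewise stood apart from the others. The 2 farthest libraries were chow Vill 1 and chow ff 2, so chow Alb 3 stayed in that check. Whether the relations hold without Vill 1, Alb 3 and ff 2 together was not tested.

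**Figure D4:**
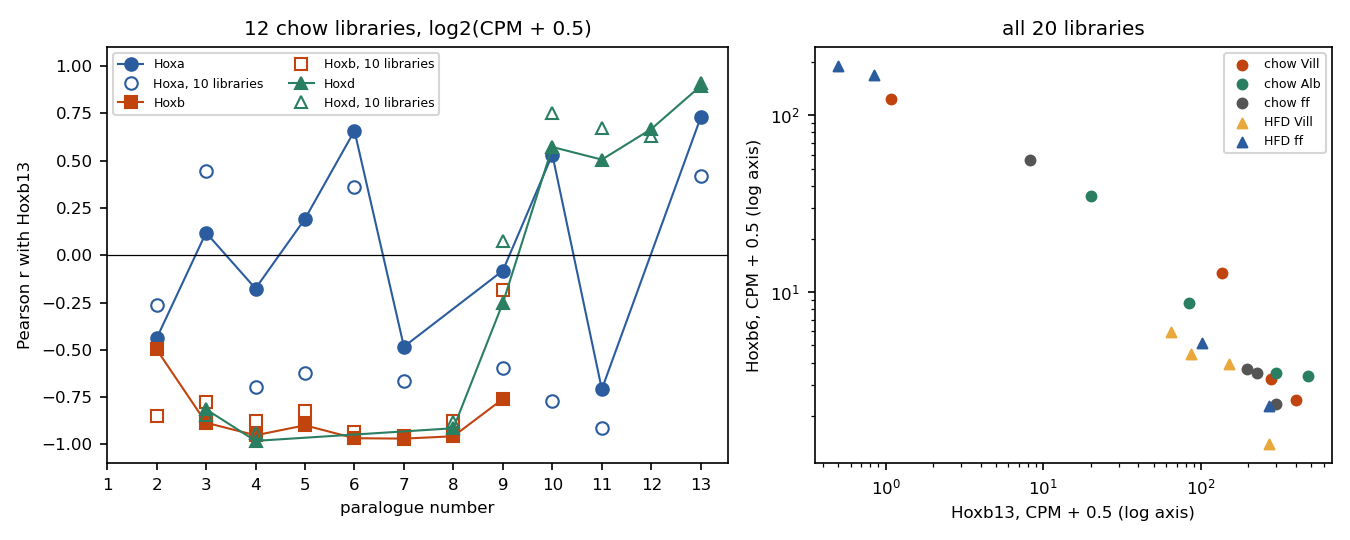
Left, Pearson r of tested Hox genes with Hoxb13 over 12 chow libraries against paralogue number (filled), and without the 2 libraries farthest in Hoxb13 (open); right, Hoxb6 against Hoxb13 as CPM + 0.5 on log axes in all 20 libraries. Clusters b and d lie between -0.98 and -0.81 from number 3 to 8, cluster d rises above 0 from number 10, and the libraries run from high Hoxb6 with low Hoxb13 to the reverse.

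Of the 10 genes of colon position, 3 were related directly to Hoxb13 (Atp12a, Scnn1g and Insl5) and 2 inversely (Cyp2c55 and Cdx2) with both coefficients under an adjusted permutation p of 0.05, and the other 5 were not (n = 12). Atp12a, the potassium pump of the distal colon, had 2.61, 682, 653 and 275 CPM in chow Vill, 53.0, 1696, 13.9 and 496 CPM in chow Alb and 484, 12.7, 570.4 and 697 CPM in chow ff, libraries 1 to 4 each. In HFD Vill, Atp12a stood at 38.2, 62.2, 627 and 189.9 CPM, against 1.90, 704, 1.70 and 21.2 CPM in HFD ff. It followed Hoxb13 on chow, r = 0.967 (adjusted permutation p = 7.60e-05) and rho = 0.923 (adjusted permutation p = 0.00095), n = 12, with r = 0.971 without the 2 farthest libraries. Insl5, a hormone of colonic L cells, had r = 0.904 (adjusted permutation p = 7.60e-05) and rho = 0.895 in the same 12 libraries. Of the subunits of the epithelial sodium channel, Scnn1g had r = 0.689 (adjusted permutation p = 0.0264) and rho = 0.776 (adjusted permutation p = 0.0125), and Scnn1b had r = 0.427 (adjusted permutation p = 0.226) and rho = 0.622 (adjusted permutation p = 0.057), n = 12. An adjusted p of 7.60e-05 rests on the smallest p that these permutations can give, 1e-05.

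Cdx2, a ParaHox factor that specifies intestine, ran the other way. Cdx2 had 318, 93.3, 28.8 and 199 CPM in chow Vill libraries 1 to 4, 223, 24.5, 224 and 99.1 CPM in chow Alb libraries 1 to 4, and 151, 289, 135 and 71.0 CPM in chow ff libraries 1 to 4. In HFD Vill, Cdx2 stood at 256, 209, 48.0 and 167 CPM, against 211, 48.0, 283 and 192 CPM in HFD ff. On chow it was lowest in Alb 2 and Vill 3, the libraries with the most Hoxb13, and r = -0.746 (adjusted permutation p = 0.0203) and rho = -0.979 (adjusted permutation p = 0.00038), n = 12, with r = -0.759 without the 2 farthest. Cyp2c55 had 1816, 110.5, 30.6 and 261 CPM in chow Vill libraries 1 to 4, 632, 73.9, 873 and 92.9 CPM in chow Alb libraries 1 to 4, and 74.4, 898, 111 and 31.5 CPM in chow ff libraries 1 to 4. In HFD Vill, Cyp2c55 stood at 415, 62.9, 21.2 and 66.5 CPM, against 699, 26.7, 1227 and 149 CPM in HFD ff. Cyp2c55, a cytochrome of the proximal colon and caecum chosen here after its values were seen, had r = -0.890 (adjusted permutation p = 7.60e-05) and rho = -0.916 (adjusted permutation p = 0.00095) with Hoxb13, n = 12. Cdx1, the other expressed Cdx gene, ran from 198 to 334 CPM over all 20 libraries and had r = 0.091 with Hoxb13 (adjusted permutation p = 0.816, n = 12). Its rho was 0.559 (adjusted permutation p = 0.0951), and its r was 0.794 without the 2 farthest libraries, so the low r of Cdx1 rests on those libraries. Ang4, Fut2 and Aqp4, also genes of the proximal colon and caecum, had r of -0.304, -0.472 and 0.024, with adjusted permutation p-values of 0.348, 0.18 and 0.943 (n = 12).

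Other tissue also varied between these libraries. Slc10a2 had 273, 3.34, 2.13 and 3.18 CPM in chow Vill libraries 1 to 4, 4.70, 10.6, 27.9 and 2.43 CPM in chow Alb libraries 1 to 4, and 1.01, 239.5, 5.52 and 2.497 CPM in chow ff libraries 1 to 4. The ileal transporter was thus above 20 CPM in the chow libraries that were low in Hoxb13, Vill 1, Alb 3 and ff 2, as in HFD ff 1 and 3. The summed level of 5 adipocyte markers was 78.6 CPM in chow Vill 1, 74.2 in chow Alb 3 and 92.4 in chow ff 2, the highest of each group, with Plin1, Adipoq and Retn at or near 0 in chow Vill 3 and chow ff 4. Over 10 smooth muscle markers the sum ran from 1178 to 7471 CPM in chow Vill, 4890 to 13128 in chow Alb and 4480 to 9448 in chow ff, and in HFD Vill from 1044 to 5544 CPM, against 2057 to 5155 CPM in HFD ff. Over 15 markers of small intestine epithelium it ran from 565 to 1380 CPM in chow Vill, 544 to 1111 in chow Alb and 564 to 1674 in chow ff, and in HFD Vill from 607 to 749 CPM, against 680 to 1932 CPM in HFD ff. The part of these tissues in the Hox levels was not tested.

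The first question of the design was whether loss of Pcca in the gut altered colon transcripts on chow. No Hox gene passed the edgeR quasi-likelihood test with Benjamini-Hochberg adjustment in chow Vill against ff, 0 of 29 tested, where 0.00508% of all tested genes passed. None had an unadjusted p under 0.05 either, against 1.9% of all genes, and DESeq2 and limma-voom called none. No member separated the groups completely, where 1.28% of all tested genes did (1.35% with scaling within the diet). The median log2 fold change was 0.18 over the 29 members, 18 of them higher and 11 lower in Vill, against 0.0034 over all tested genes. Hoxb9 and Hoxa3 had some of the smallest unadjusted p-values. Hoxb9 had a log2 fold change of 0.21 (95% interval -0.14 to 0.56) and Hoxa3 0.21 (95% interval -0.18 to 0.59), both with an adjusted p of 0.9999. Hoxb13 had 0.15 (95% interval -2.72 to 3.01) and Hoxd13 0.63 (95% interval -3.20 to 4.45), intervals that reach several-fold in both directions. Hoxa13, at -0.15 (95% interval -0.63 to 0.33), and Hoxb9 were bounded more closely. Hoxc4 had -0.08 (95% interval -1.40 to 1.23). Exact permutation tests of log2(CPM + 0.5) over the 70 assignments, two-sided, gave p of 0.743 for Hoxb13 (chow Vill 203 ± 173 CPM, chow ff 182 ± 124 CPM, SD, n = 4 each), where the smallest possible p is 0.0286.

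Chow Alb against ff asked whether loss of Pcca in the liver reached the colon, and again 0 of 29 Hox genes passed, as did 0% of all tested genes. None of the members had an unadjusted p under 0.05, against 4.4% of all genes, and DESeq2 and limma-voom called no member. Hoxd3 had a log2 fold change of 1.17 (95% interval -1.26 to 3.59) and Hoxa10 0.15 (95% interval -0.16 to 0.45), among the smallest p-values, both at an adjusted p of 0.990. The paralogue 13 genes gave 0.06 (95% interval -0.42 to 0.54) for Hoxa13, 0.27 (95% interval -2.60 to 3.13) for Hoxb13 and 0.76 (95% interval -3.07 to 4.60) for Hoxd13. Hoxc4 gave 0.01 (95% interval -1.31 to 1.33). No member separated these groups completely, where 2.79% of all tested genes did (2.82% with scaling within the diet). The exact permutation p of Hoxb13 was 0.83 (chow Alb 220.4 ± 210.3 CPM, chow ff 182 ± 124 CPM, SD, n = 4 each). Both comparisons use the same 4 chow ff libraries.

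Chow Vill against Alb gave 0 of 29, where 0.00508% of all genes passed, and 0 members at an unadjusted p under 0.05, against 8.87% of all genes. Hoxa3 had a log2 fold change of 0.32 (95% interval -0.07 to 0.71) with an adjusted p of 0.627, Hoxb9 0.24 (95% interval -0.11 to 0.59) with 0.687, and Hoxb2 -0.93 (95% interval -2.32 to 0.46) with 0.701. DESeq2 and limma-voom called no member here either, and none separated the groups completely, where 4.53% of all tested genes did (4.71% with scaling within the diet). Hoxa13, Hoxb13 and Hoxd13 had -0.21 (95% interval -0.69 to 0.26), -0.12 (95% interval -2.98 to 2.74) and -0.14 (95% interval -3.95 to 3.67), and Hoxc4 -0.09 (95% interval -1.42 to 1.23).

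**Figure D5:**
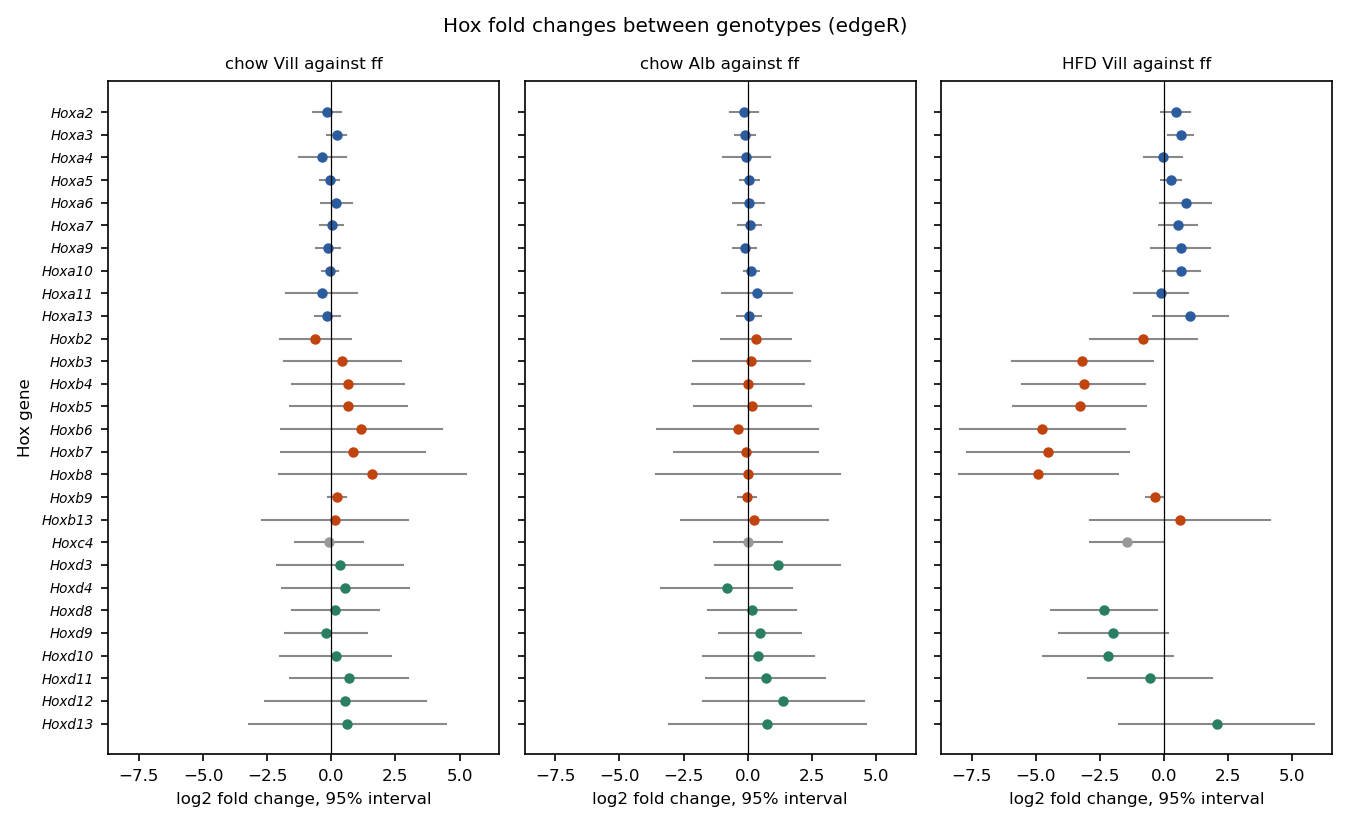
Log2 fold changes (points, coloured by cluster) with 95% intervals (lines) from edgeR for tested Hox genes in chow Vill against ff, chow Alb against ff and HFD Vill against ff. Chow intervals all cross 0. On HFD those of Hoxb3 to Hoxb9, Hoxc4 and Hoxd8 lie below 0 and that of Hoxa3 above 0, and none of them passed the adjusted threshold.

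On HFD the question was put to Vill against ff animals. No Hox gene passed, 0 of 26, where 0.00564% of all tested genes did. At an unadjusted p under 0.05 there were 10 of 26, against 3.45% of all genes, and DESeq2 and limma-voom gave 13 and 5 at that limit and called none. For DESeq2 and limma-voom the share of all genes at that limit was not taken. Of the 10 in edgeR, Hoxa3 was higher in Vill, and Hoxb3 to Hoxb9, Hoxc4 and Hoxd8 were lower. Hoxb8 had a log2 fold change of -4.89 (95% interval -8.00 to -1.78) at an unadjusted p of 0.00625 and an adjusted p of 0.932. Hoxb6 had -4.74 (95% interval -7.97 to -1.51) and Hoxb7 -4.53 (95% interval -7.69 to -1.37), both at the same adjusted p. Levels were 3.44 ± 1.90 CPM of Hoxb6 in HFD Vill and 91.3 ± 102 CPM in HFD ff (SD, n = 4 each), and the groups overlapped. The exact permutation p was 0.114 for Hoxb8, 0.229 for Hoxb6 and 0.229 for Hoxb7 (n = 4 each). Of 12 tested markers of small intestine epithelium 4 also had an unadjusted p under 0.05, among them Slc10a2 at -6.16 and Sis, a brush border disaccharidase, at -4.91, and none passed. The part of that tissue in the Hox values was not tested. These values rest on HFD ff 1 and 3, which had 189.9 and 169 CPM of Hoxb6 and the ileal genes named above. Without both libraries, 1 of 26 members had an unadjusted p under 0.05, and the log2 fold changes were 0.11 for Hoxb6 and 0.19 for Hoxb7, on the other side of 0. The share of all genes under 0.05 without both libraries was not taken.

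Hoxb8 without those libraries had -0.41. On the printed CPM scale 3 members did not overlap between HFD Vill and HFD ff, Hoxa13, Hoxa3 and Hoxa6, all higher in Vill, which is 3 of 26 where 2.09% of all tested genes did not overlap. With scaling over the HFD libraries alone Hoxa3 overlapped, leaving 2 of 26 where 2.13% of all tested genes did not overlap. Hoxa13 had 66.3 ± 3.88 CPM in HFD Vill and 32.6 ± 25.2 CPM in HFD ff (SD, n = 4 each), a log2 fold change of 1.02 (95% interval -0.44 to 2.49), and 0.32 without HFD ff 1 and 3. Its exact permutation p was 0.0286, the smallest that 4 against 4 allow, and 0.690 when adjusted over the 29 such tests. Hoxb13 and Hoxd13 had 0.63 (95% interval -2.90 to 4.15) and 2.05 (95% interval -1.76 to 5.86), and -0.37 and 1.07 without the 2 libraries. Hoxc4 had -1.45 (95% interval -2.89 to -0.02). Adjusted p-values were 0.932 for Hoxa13, 0.975 for Hoxb13, 0.932 for Hoxd13 and 0.932 for Hoxc4 in edgeR. The authors' deposited table also called no Hox gene in any of its 4 comparisons, with a smallest adjusted p of 0.312 in HFD Vill against ff, for Hoxb8.

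The HFD minus chow difference in the Vill effect, in which diet and age differ together, was tested in 1 fit of 16 libraries. It called 0 of 29 Hox genes, as it did 0% of all genes, and 7 had an unadjusted p under 0.05, against 2.54% of all genes. DESeq2 and limma-voom gave 9 and 3 at that limit, where the share of all genes was not taken, and called none. The largest were Hoxb8 at -6.48 (95% interval -11.72 to -1.24), Hoxb6 at -5.89 (95% interval -10.69 to -1.09) and Hoxb7 at -5.35 (95% interval -9.80 to -0.90) on the log2 scale, all at an adjusted p of 0.9999. Without chow Vill 1 these were -2.78, -3.25 and -2.75 for Hoxb8, Hoxb6 and Hoxb7, without chow ff 2 they were -9.65, -8.43 and -7.00, and without HFD ff 1 and 3 they were -2.02, -1.06 and -0.64. Hoxa13, Hoxb13, Hoxd13 and Hoxc4 had differences of 1.18 (95% interval -0.38 to 2.73), 0.48 (95% interval -4.24 to 5.19), 1.40 (95% interval -3.77 to 6.57) and -1.36 (95% interval -3.33 to 0.60). The count of 7 was 0 without HFD ff 1 and 3, and likewise 0 without chow Vill 1.

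Genes that work with Hox factors or regulate them were counted in the same fits, and none of them passed in any of the 5 comparisons. The lists held 6 ParaHox genes (3 tested on chow and on HFD), 9 TALE cofactors (9 on chow, 8 on HFD), 8 other factors of gut region (8 and 6), 18 Polycomb and trithorax regulators (18 and 18), 15 genes of retinoic acid handling (12 and 10) and 45 non-coding rows inside the clusters (21 and 18). Of the TALE cofactors, which bind DNA beside Hox proteins, Pbx2 averaged 41.4 CPM over the 20 libraries. Meis3 had a log2 fold change of -1.14 in HFD Vill against ff (adjusted p = 0.932 in edgeR). Of the Polycomb and trithorax regulators, which keep Hox genes off or on, Kmt2a averaged 115 CPM and Kmt2b 90.6 CPM, and Phc1 had -0.26 on HFD at the same adjusted p. Aldh1a1, which makes retinoic acid, averaged 128 CPM and had -1.76 on HFD, again at an adjusted p of 0.932. The antisense transcript Hoxb5os had 2.64, 4.83, 2.17 and 1.27 CPM in HFD Vill, against 40.6, 2.88, 42.6 and 2.27 CPM in HFD ff, and a log2 fold change of -3.02. In HFD Vill against ff the median log2 fold change was -0.29 over the tested TALE cofactors, 0.0020 over the Polycomb and trithorax list and 0.50 over the non-coding rows, where the Hox genes had -0.24.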

How the data were processed

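Colon libraries of 5 groups, 4 each by the labels, were compared. Raw read counts per gene, with gene lengths and positions, were taken as deposited, and per the file headers 28 more per-sample columns exist, which were not used here. Mapping and counting tools listed by the submitters' processing notes, with no role given, are featureCounts 1.5.0-p3 and HISAT2 2.0.5. The same notes list edgeR 3.22.5 and DESeq2 1.20.0, and mm39 as the genome. Whether strand was counted is not settled. For each contrast, the authors' deposited table gives its own log2 fold change and p-value, set beside the new tests.

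Counts were tested in R 4.3.3 with edgeR 4.0.16 (quasi-likelihood, TMM, default expression filter). Benjamini-Hochberg adjustment ran over every gene tested, with calls at an adjusted p under 0.05. One model held all 12 chow libraries, another the 8 HFD libraries, and a separate one the 16 Vill and ff libraries for the contrast of diets. The fits were tested on simulated data. CPM were scaled over the genes that both tables list. Limits for counts of 0 cover counting error only. Alternatives were other scalings and filters, DESeq2 1.42.0, limma-voom (limma 3.58.1), a replicate term, other pseudocounts and libraries left out.

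Named by library were paralogue 13, the highest member per length of each cluster and the 3 smallest unadjusted p-values of each comparison. Of the other lists, called genes were named, otherwise the 2 smallest p-values and the 2 highest levels. Some genes that these rules select are not reported here. Members and lists were chosen with earlier results of these data known.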

Additional observations from a re-analysis of the deposited data

Results flagged for a closer look

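Within groups of 4 libraries, the highest or lowest library was compared with its nearest neighbour by Dixon's ratio at its 95% limit for the genes printed by library. Of 106 groups 19 passed the limit. Chance flags about 1 in 20 groups, but the genes are not independent of each other and several, among them Cyp2c55, Slc10a2, Hoxa11 and Hoxd10, were picked after their values were seen, so the count is a description and no test against that rate.

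Most of these concern chow Vill 1 and chow ff 2, each far above the other 3 libraries of its group. In chow Vill 1 they were Hoxb6 at 123 CPM, Hoxb7 at 21.2 CPM, Hoxb8 at 41.2 CPM, Hoxd3 at 1.05 CPM, Cyp2c55 at 1816 CPM and Slc10a2 at 273 CPM. In chow ff 2 they were Hoxb6 at 55.1 CPM, Hoxb7 at 10.5 CPM, Hoxb8 at 13.4 CPM, Hoxd3 at 0.903 CPM, Hoxa11 at 11.5 CPM, Cyp2c55 at 898 CPM and Slc10a2 at 239.5 CPM. Chow Alb 3 stood out in Hoxb6 alone, at 34.3 CPM.

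In the remaining cases, Hoxd13 stood at 43.5 CPM in HFD Vill 3, against 0.362 to 4.52 CPM in the other HFD Vill libraries. In chow ff 4 Hoxd13 stood at 92.7 CPM and Hoxd10 at 9.33 CPM. Atp12a stood at 704 CPM in HFD ff 2, and Cyp2c55 at 415 CPM in HFD Vill 1.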

How the results depend on the processing

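No Hox gene passed in any of the 5 comparisons under any alternative, libraries left out included. What moved was the count at an unadjusted p under 0.05. In HFD Vill against ff it was 10, and 13 with DESeq2, 5 with limma-voom, 17 with no filter, 2 with a replicate block, 1 without HFD ff 1 and 3, and 6 to 16 without 1 library (6 without HFD ff 3 or HFD Vill 4, and 16 without HFD ff 4). For the difference between diets it was 7, and 9, 3, 10, 1 and 0 under the same alternatives in the same order, and 0 to 12 without 1 library (0 without chow Vill 1). The share of all genes at that limit was taken only for the main fits, so the counts under the alternatives cannot be set against one. Leaving out a library of a group of 4 was fitted with the spread shared over groups.

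Single log2 fold changes, none of them past the threshold, changed sign as follows, and the cause was not tested. With limma-voom, Hoxb13, Hoxd13 and Hoxc4 had -0.83, -0.11 and 0.00662 in chow Vill against ff, and Hoxd13 had -0.26 in chow Alb against ff and 0.16 in chow Vill against Alb. With the replicate block, Hoxb13 had -0.48 in chow Vill against ff and -0.17 in chow Alb against ff. Without HFD ff 1 and 3, HFD Vill against ff gave -0.37 for Hoxb13, 0.11 for Hoxb6 and 0.19 for Hoxb7, and the difference between diets gave -0.52 for Hoxb13. With a pseudocount of 0.1, the difference of mean log2 levels was 0.026 for Hoxc4 in chow Vill against ff and -0.00471 for Hoxd13 in chow Alb against ff.

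Without 1 library, chow Vill against ff ran from -0.41 to 0.55 for Hoxb13, -0.49 to 2.49 for Hoxd13 and -0.53 to 0.59 for Hoxc4. Chow Alb against ff ran from -0.033 to 0.21 for Hoxa13, -0.45 to 0.66 for Hoxb13, -0.92 to 2.65 for Hoxd13 and -0.30 to 0.70 for Hoxc4. Chow Vill against Alb ran from -0.68 to 0.58 for Hoxb13, -1.26 to 1.53 for Hoxd13 and -0.54 to 0.21 for Hoxc4. HFD Vill against ff ran from -0.46 to 3.58 for Hoxd13, and the difference between diets from -0.041 to 1.92 for Hoxb13 and -1.09 to 2.94 for Hoxd13.

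Replicate numbers did not clearly pair the samples. Same-numbered libraries correlated at -0.57 to 0.47 on chow and -0.39 to 0.45 on HFD in their deviations from group means, and 2 of 12 chow and 3 of 8 HFD libraries correlated best with their own number. On HFD, numbers 1 and 4 gave 0.45 and 0.44 and numbers 2 and 3 gave -0.39 and -0.13, so the check cannot decide on pairing. With 4 libraries a group and the spread seen in Hoxb13 and Hoxd13, several-fold differences in either direction were not detectable.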
